A study of Mus musculus with 5 samples.

Results

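The genes described here are 31 genes of fatty acid oxidation and its control by peroxisome proliferator-activated receptors (PPARs), measured in mouse thoracic aorta. They were chosen by name: the enzymes and carriers that take fatty acids through mitochondrial and peroxisomal oxidation, and 6 genes outside these steps that are commonly used as readouts of PPAR activity. Of the 31, 28 had a probe set that the platform annotation assigns to that gene alone, among 18193 genes named in this way, and each gene was read from its brightest such probe set over the 5 arrays. Acsl1, Cpt1b and Ucp2 had no probe set assigned to them alone and were not analysed here. The 28 comprised 19 genes of mitochondrial steps, 4 of peroxisomes and 5 others.

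The P467L group was 3 arrays from male C57BL/6 mice with a transgene for P467L, a dominant negative mutant of human PPARγ, placed under the promoter of smooth muscle myosin heavy chain. The non-transgenic group was 2 arrays from their male littermates without the transgene. Each array held the pooled RNA of 6 to 8 thoracic aortas, and the pools of a genotype are given as biological replicates. The age of the mice and any treatment are not given in the sources used here. Since the promoter directs the mutant to smooth muscle while the RNA came from the whole vessel, RNA of cells without the transgene enters every value. Fewer cells of a type and less RNA per cell cannot be told apart in such bulk samples.

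Fatty acids are activated to acyl-CoA, carried into the mitochondrion as carnitine esters and shortened in a repeated cycle of dehydrogenation, hydration, a further dehydrogenation and thiolysis. The electrons of the first dehydrogenation pass through electron transfer flavoprotein to the respiratory chain, and peroxisomes run a related cycle on substrates such as very long chains. PPARs are nuclear receptors that bind fatty acids and pair with retinoid X receptors on a direct repeat of a hexamer, the PPAR response element. PPARα and PPARδ are the main activators of oxidation genes in liver, heart and muscle, and PPARγ is best known for lipid storage in fat. Brown adipocytes, which surround the thoracic aorta of mice, express the oxidation genes at a high level.

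Arrays were compared on the log2 scale, on which 1 unit is a doubling, and their medians ran from 6.17 to 6.23 in P467L and were 6.25 in both non-transgenic arrays. The smooth muscle markers Acta2, Tagln and Myh11 measured 13.87 or more in all arrays, so the labelled tissue carried its defining transcripts. P467L replicate 1 stood apart, correlating with the other arrays at 0.985 to 0.991, with 842 probe sets at least 1 log2 unit below all others. Non-transgenic replicate 2 had 56 probe sets at least 1 unit above all others, stomach transcripts among them. Such transcripts were not confined to that array. Gkn2 measured 13.32 there, against 10.23, 10.22 and 10.02 in P467L replicates 1 to 3 and 8.79 in non-transgenic replicate 1. Results were therefore recomputed without each array.

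None of the 28 genes passed the test between P467L and non-transgenic aortas. With limma over all 45037 probe sets, 0 of the 28 had an adjusted p under 0.05, against 0% of all probe sets, and the smallest adjusted p among them was 0.549. At an unadjusted p under 0.05 there were 3 of 28, against 9.45% of named genes: Acadvl and Vnn1 were higher in P467L, as were 6.94% of named genes at this p, and Etfa was lower, as were 2.51%. In 4 of 28 genes all P467L arrays lay on one side of both non-transgenic arrays, where 22.7% of named genes did so, 3 with P467L higher (16.1% of named genes) and 1 with P467L lower (6.55%). The median difference was -0.02 log2 units, with 11 genes higher, 16 lower and 1 at 0, beside a median of 0.02 over all named genes.

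The intervals show how large a difference the data allow. The 95% interval of the difference lay within 0.5 log2 units of 0 for 22 of the 28 genes and within 1 unit for 27, the exception being Acaa1b. For comparison, 14366 and 17455 of the 18193 named genes had intervals that narrow. The median standard error (SE) was 0.095 for the 28 and 0.079 for all named genes. With 5 arrays, differences smaller than these intervals were not detectable, and larger ones could also miss the adjusted threshold. The intervals are not adjusted for the number of probe sets, and the smallest adjusted p of any probe set in the limma test was 0.095. The skeletal muscle marker Ckm differed by 1.33 (95% interval 0.47 to 2.19, adjusted p = 0.491). The endothelial marker Emcn differed by -1.05 (-1.38 to -0.72, adjusted p = 0.234). Neither was called, so the absence of calls among the 28 genes adds little to the intervals. Ckm and Emcn had the largest absolute differences of their lists. The skeletal muscle list had a median of 0.04, with 5 of 8 markers higher and 3 lower. The endothelial list had a median of 0.03, also with 5 of 8 higher and 3 lower. Cldn5, at 0.73, and Nos3, at 0.465, were among its higher markers.

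**Figure D1:**
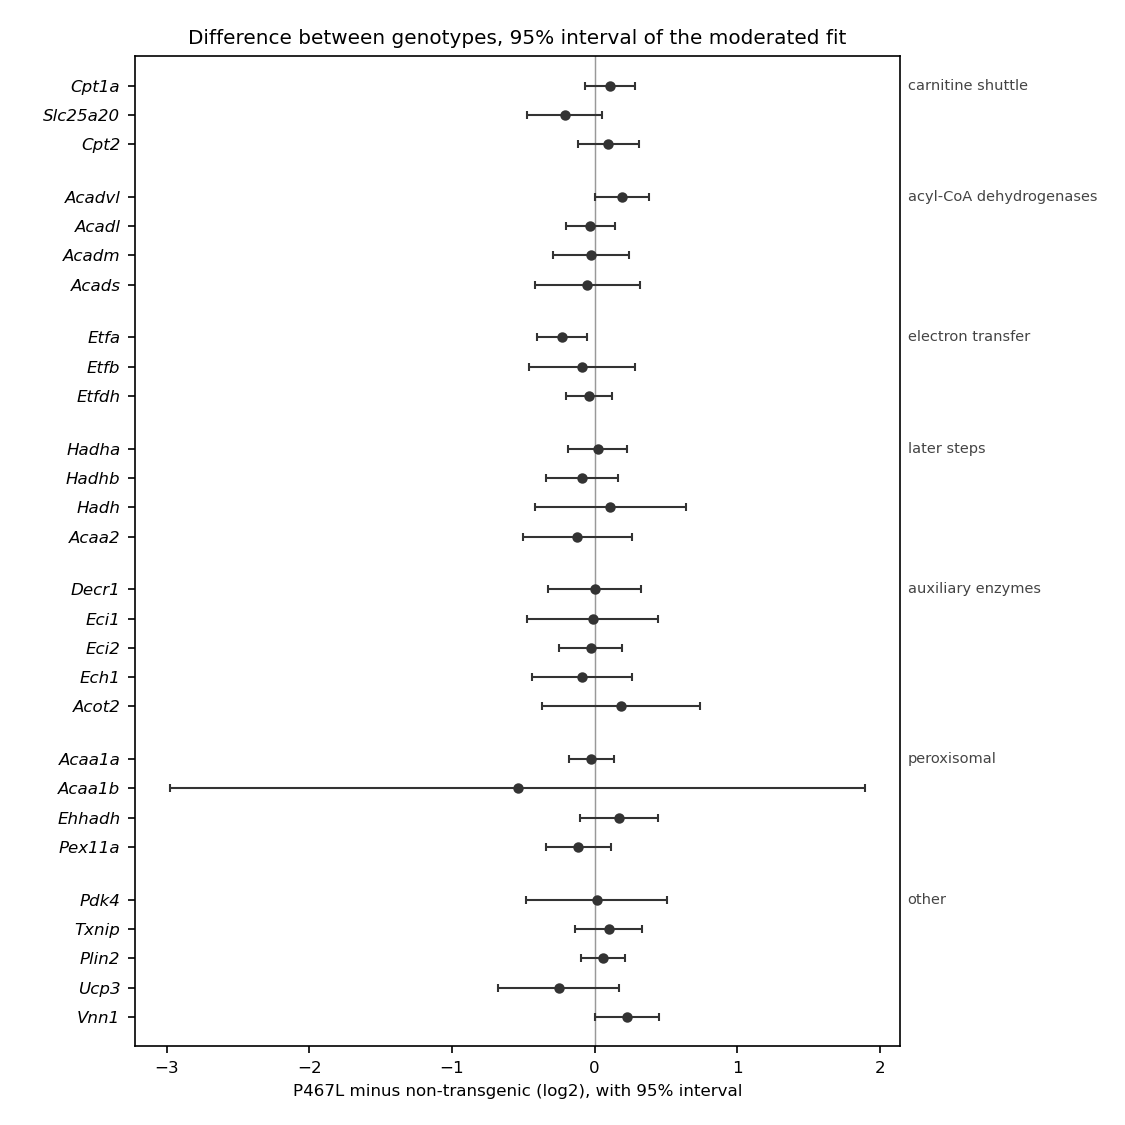
Difference between P467L and non-transgenic aortas (horizontal axis, log2) for the 28 measured genes, grouped by role from top to bottom. Points are the fitted differences and bars their 95% intervals; 25 bars cross 0, those of Etfa, Acadvl and Vnn1 do not, and that of Acaa1b runs from -2.98 to 1.90.

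The promoters of the genes were searched for the PPAR response element in its plain form, AGGTCANAGGTCA, on both strands, from 250 bases before to 50 after the RefSeq start (build GRCm38.p6). Promoters were found for 27 of the 31 genes. No promoter held the repeat exactly or with 1 mismatch at its 12 fixed bases. Over all 27025 genes with a promoter, 0.0481% held it exactly and 0.644% with at most 1 mismatch, so few were to be found among 27. With 2 mismatches 4 of 27 genes (14.8%) held it, against 1190 of 27025 (4.40%) with at most 2. Sites outside this window were not searched. The 4 were Etfa, Slc25a20, Ucp3 and Plin2. Counted from 0 at the first transcribed base, the match began at -77 in Etfa, -51 in Ucp3, -225 in Plin2 and 6 in Slc25a20. They are shown as the closest matches among the genes. Slc25a20, Etfa and Ucp3 had the most negative differences after Acaa1b, while Plin2 differed by 0.06, and none of these passed the test. A second Ucp3 probe set gave 0.10, and a link between match and difference was not tested. A match of letters does not show that a receptor binds there. The sequences run 5′ to 3′ on the strand of the gene, with the match in capitals; in Etfa and Plin2 it lies on the opposite strand and so reads as the reverse complement of the repeat. Etfa (chr9:55512244-55512493, minus strand) and Ucp3 (chr7:100472741-100472990, plus strand) are given as the 250 bases before the start, and Slc25a20 (chr9:108662134-108662162, plus strand) and Plin2 (chr4:86670264-86670292, minus strand) as 29 bases around the match.
Etfa: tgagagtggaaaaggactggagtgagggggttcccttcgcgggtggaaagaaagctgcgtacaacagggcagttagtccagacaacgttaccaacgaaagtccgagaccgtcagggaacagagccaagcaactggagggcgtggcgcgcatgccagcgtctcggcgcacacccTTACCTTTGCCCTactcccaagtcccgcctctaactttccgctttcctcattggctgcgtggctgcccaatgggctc
Ucp3: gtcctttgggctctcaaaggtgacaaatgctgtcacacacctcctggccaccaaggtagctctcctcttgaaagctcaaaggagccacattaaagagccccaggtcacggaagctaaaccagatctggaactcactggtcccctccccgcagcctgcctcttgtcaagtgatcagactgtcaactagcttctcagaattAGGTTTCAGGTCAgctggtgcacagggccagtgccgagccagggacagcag
Slc25a20: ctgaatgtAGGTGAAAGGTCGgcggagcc
Plin2: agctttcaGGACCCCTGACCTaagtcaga

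Carriage of fatty acids into the mitochondrion was read from 3 genes. Cpt1a, the carnitine palmitoyltransferase of the outer membrane that sets the rate of entry, measured 10.56, 10.49 and 10.48 in P467L replicates 1 to 3, against 10.32 and 10.48 in non-transgenic replicates 1 and 2. The lowest P467L value thus met the higher non-transgenic one, and the difference was 0.11 (SE 0.065, adjusted p = 0.784), 0.03 without non-transgenic replicate 1 and 0.19 without non-transgenic replicate 2. Its other probe sets gave 0.18, with all P467L arrays above both non-transgenic arrays, and 0.20, with overlap. Slc25a20, the translocase that exchanges acylcarnitine for carnitine across the inner membrane, measured 9.44, 9.19 and 9.29 in P467L, against 9.59 and 9.44 in non-transgenic aortas. P467L replicate 1 equalled non-transgenic replicate 2 and the other P467L arrays lay below both, with a difference of -0.21 (SE 0.097, adjusted p = 0.778). A dimmer probe set gave -0.32 with all P467L arrays below both non-transgenic arrays, and the difference in the brighter one ran from -0.28 to -0.13 when single arrays were left out, the smallest without non-transgenic replicate 1. Cpt2, which returns the acyl group to CoA inside the mitochondrion, measured 9.84, 9.64 and 9.64 in P467L, against 9.62 and 9.60 in non-transgenic aortas, so the groups did not overlap but nearly touched. The difference of 0.10 (SE 0.079) was 0.03 without P467L replicate 1.

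The acyl-CoA dehydrogenases carry out the first step of the cycle, each on its own range of chain lengths. Acadvl, the very long chain enzyme, measured 10.89, 10.86 and 10.81 in P467L, against 10.75 and 10.57 in non-transgenic aortas. All P467L arrays were above both non-transgenic arrays, by a mean of 0.19 (SE 0.069) or 1.14-fold (unadjusted p = 0.0463, adjusted p = 0.655), and leaving out single arrays gave 0.10, without non-transgenic replicate 2, to 0.28, without non-transgenic replicate 1. Acadm, the medium chain enzyme and a textbook PPARα target, measured 11.21, 11.26 and 11.22 in P467L, against 11.40 and 11.11 in non-transgenic aortas. The P467L arrays lay between the non-transgenic ones, and the difference of -0.03 (95% interval -0.29 to 0.24) turned to 0.12 without non-transgenic replicate 1. Acadl and Acads, for long and short chains, differed by -0.03 and -0.05.

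Electron transfer flavoprotein, a dimer of the products of Etfa and Etfb, takes electrons from these dehydrogenases, and Etfdh passes them to ubiquinone. All 3 genes had negative differences. Etfa measured 10.83, 10.76 and 10.86 in P467L, against 11.12 and 10.97 in non-transgenic aortas. Every P467L array was below both non-transgenic arrays, with the smallest p of the 28 genes, a difference of -0.23 (SE 0.065) or 0.854-fold (unadjusted p = 0.0224, adjusted p = 0.549). The difference was -0.15 without non-transgenic replicate 1 and -0.30 without non-transgenic replicate 2. It was negative in all alternatives run, some of which cannot change it. Etfb, the partner subunit, measured 10.50, 10.36 and 10.22 in P467L, against 10.61 and 10.29 in non-transgenic aortas, groups that overlap, and its difference of -0.09 (SE 0.14) turned to 0.07 without non-transgenic replicate 1. Etfdh measured 9.63 in each P467L array, between the 9.75 and 9.59 of the non-transgenic arrays.

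The later steps of the cycle are carried by the trifunctional protein, by Hadh, the hydroxyacyl-CoA dehydrogenase of shorter chains, and by Acaa2, the mitochondrial thiolase. Hadha and Hadhb encode the α and β subunits of the trifunctional protein and are transcribed in opposite directions from starts 273 bases apart. Hadha measured 10.69, 10.71 and 10.59 in P467L, against 10.73 and 10.55 in non-transgenic aortas. Hadhb measured 10.80, 10.65 and 10.67 in P467L, against 10.91 and 10.68 in non-transgenic aortas. Both were highest in non-transgenic replicate 1 and their genotype differences were 0.02 (SE 0.076) and -0.09 (SE 0.094). The 250 bases before the Hadhb start (chr5:30155003-30155252, plus strand) lie between the starts of both genes and are shown as the stretch they share; the closest match to the response element there had 4 mismatches.
Hadhb: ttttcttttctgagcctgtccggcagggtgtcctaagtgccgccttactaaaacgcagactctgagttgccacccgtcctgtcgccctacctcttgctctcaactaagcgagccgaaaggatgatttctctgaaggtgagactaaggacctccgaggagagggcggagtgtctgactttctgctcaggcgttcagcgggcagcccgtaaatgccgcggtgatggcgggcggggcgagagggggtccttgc

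Acaa2 had the largest absolute difference among the genes of these later steps. It measured 10.16, 9.88 and 9.85 in P467L, against 10.22 and 9.95 in non-transgenic aortas, so that P467L replicate 1 lay between the non-transgenic arrays. The difference was -0.12 (SE 0.14, adjusted p = 0.855), and all 3 of its probe sets were negative, the others at -0.18 and -0.23. It was 0.01 without non-transgenic replicate 1. Hadh differed by 0.11 (SE 0.19), with P467L replicate 1 highest at 12.23 and P467L replicate 3 and non-transgenic replicate 2 lowest at 11.69.

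Auxiliary enzymes rearrange the double bonds of unsaturated chains. The reductase Decr1 had group means of 10.15 in both genotypes. The isomerases Eci1, Eci2 and Ech1, of which Eci2 and Ech1 are also found in peroxisomes, differed by -0.01, -0.03 and -0.09. In Eci2 and Ech1 the highest array was P467L replicate 1 and the lowest P467L replicate 3, so the P467L arrays spanned the non-transgenic ones. Acot2, a mitochondrial thioesterase that frees acyl chains from CoA, measured 8.59, 8.11 and 8.00 in P467L, against 8.11 and 7.98 in non-transgenic aortas. Only P467L replicate 1 exceeded the non-transgenic range; the difference of 0.19 (SE 0.20) was 0.01 without that array.

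Peroxisomal oxidation was represented by the thiolases Acaa1a and Acaa1b, by Ehhadh, the bifunctional hydratase and dehydrogenase, and by Pex11a, a membrane protein that promotes peroxisome division. Ehhadh, often used as a PPARα target, measured 7.39, 7.29 and 7.29 in P467L, against 7.29 and 7.01 in non-transgenic aortas, a difference of 0.17 (SE 0.10, adjusted p = 0.784). P467L replicates 2 and 3 equalled non-transgenic replicate 1. The difference was 0.31 without non-transgenic replicate 1 and 0.03 without non-transgenic replicate 2. Acaa1a differed by -0.02 (SE 0.057). Pex11a differed by -0.11 (SE 0.083) by its brighter probe set and by 0.28 by a dimmer one; the brighter gave -0.01 without non-transgenic replicate 1 and -0.21 without non-transgenic replicate 2. The thiolase Acaa1b had by far the widest spread of the 28 genes.

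Acaa1b measured 6.27, 7.31 and 6.79 in P467L, against 8.66 and 6.00 in non-transgenic aortas. The non-transgenic arrays held both the highest and the lowest value, 2.66 log2 units apart, and the P467L arrays lay between them. The difference was -0.54 (SE 0.90, 95% interval -2.98 to 1.90, adjusted p = 0.893), 0.79 without non-transgenic replicate 1 and -1.87 without non-transgenic replicate 2. Other genes of the pathway had non-transgenic replicate 1 highest and P467L replicate 2 next: Slc27a2, a very long chain acyl-CoA synthetase, measured 7.20, 8.53 and 8.08 in P467L, against 9.46 and 7.45 in non-transgenic aortas. Eci3, a peroxisomal isomerase, measured 5.78, 6.64 and 6.14 in P467L, against 7.53 and 6.14 in non-transgenic aortas. Transcripts of the kidney showed the same order of the highest arrays. Umod, the uromodulin of the thick ascending limb, measured 7.61, 9.18 and 8.65 in P467L, against 10.32 and 8.02 in non-transgenic aortas. Kap, the kidney androgen-regulated protein, measured 9.72, 11.71 and 11.11 in P467L, against 12.23 and 10.05 in non-transgenic aortas. Of 8 kidney markers 8 were highest in non-transgenic replicate 1, and the list's array medians, as deviations from the mean of the non-transgenic arrays, were -0.84, 0.09 and -0.40 in P467L, against 0.73 and -0.73 in non-transgenic aortas. These kidney markers and Slc27a2 and Eci3 were singled out after their values were seen, and the part of kidney RNA in the Acaa1b values was not tested.

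**Figure D2:**
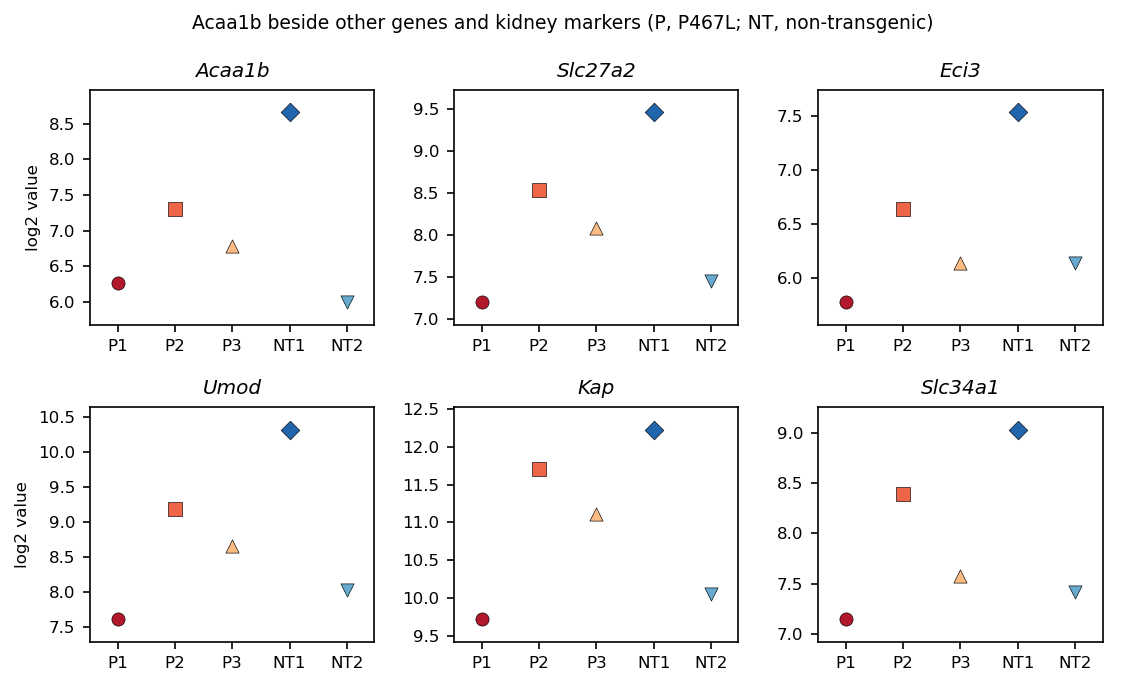
Log2 values (vertical axes, scaled per gene) of the peroxisomal thiolase Acaa1b, of Slc27a2 and Eci3, and of the kidney transcripts Umod, Kap and Slc34a1 in each array (P1 to P3, P467L replicates; NT1 and NT2, non-transgenic replicates). P467L replicate 2 is the highest P467L array and lies below non-transgenic replicate 1 in all 6 panels; Acaa1b measured 7.31 and 8.66 in these arrays.

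The remaining genes link oxidation to glucose use, lipid storage and CoA supply. Pdk4, the pyruvate dehydrogenase kinase that spares glucose when fat is burned and a strong PPAR target in muscle, measured 8.73, 8.31 and 8.85 in P467L, against 8.64 and 8.59 in non-transgenic aortas. P467L arrays held both the highest and the lowest value, and the difference was 0.02 (95% interval -0.48 to 0.51). Plin2, the coat protein of lipid droplets, measured 10.20, 10.07 and 10.08 in P467L, against 10.08 and 10.03 in non-transgenic aortas, a difference of 0.06 (95% interval -0.09 to 0.22) that was 0.02 without P467L replicate 1. Txnip, a glucose-induced arrestin that restrains glucose uptake, measured 12.03, 12.10 and 12.18 in P467L, against 11.90 and 12.11 in non-transgenic aortas, groups that overlap.

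Vnn1, the pantetheinase that releases pantothenate for CoA synthesis and a PPARα target in liver, measured 7.86, 7.68 and 7.91 in P467L, against 7.58 and 7.60 in non-transgenic aortas. All P467L arrays were above both non-transgenic arrays, by a mean of 0.23 (SE 0.082) or 1.17-fold (unadjusted p = 0.0481, adjusted p = 0.662). The difference lay between 0.18 and 0.30 without single arrays, and its dimmer probe set gave 0.20. Of the macrophage markers 8 of 8 had positive differences, as did 10196 of 18193 named genes, and none passed the adjusted threshold. Their array medians were 0.39, 0.00 and 0.22 in P467L, against -0.01 and 0.01 in non-transgenic aortas. The part of macrophages in the Vnn1 values was not tested. Ucp3, a mitochondrial carrier of muscle and brown fat, measured 6.18, 5.93 and 5.93 in P467L, against 6.46 and 6.07 in non-transgenic aortas, values near the array medians. The difference was -0.25 (SE 0.16), and a second probe set of nearly the same brightness gave 0.10. It was -0.06 without non-transgenic replicate 1 and -0.45 without non-transgenic replicate 2.

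For most of the 28 genes the non-transgenic arrays differed from each other by more than the genotypes did. The difference between genotypes was smaller than the gap between the 2 non-transgenic arrays in 20 of the 28 genes, or 71.4%, where this held for 37.1% of named genes. The 2 measures are unlike, since a gap between single arrays varies more than a difference of group means even without a genotype effect. Non-transgenic replicate 1 exceeded replicate 2 in 24 of 28 genes (85.7%, against 43.2% of named genes) and in 18 of the 19 mitochondrial genes, by a median of 0.16. Among P467L arrays, replicate 1 was the highest in 20 of 28 genes (71.4%, against 54.2% of named genes). On the same scale of deviations, the medians of the 28 genes were 0.08, -0.01 and -0.12 in P467L replicates 1 to 3, against 0.08 and -0.08 in non-transgenic replicates 1 and 2. The P467L arrays thus reached from the level of the higher non-transgenic array to below the lower one. These shares describe genes of the same arrays and are not independent of each other.

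**Figure D3:**
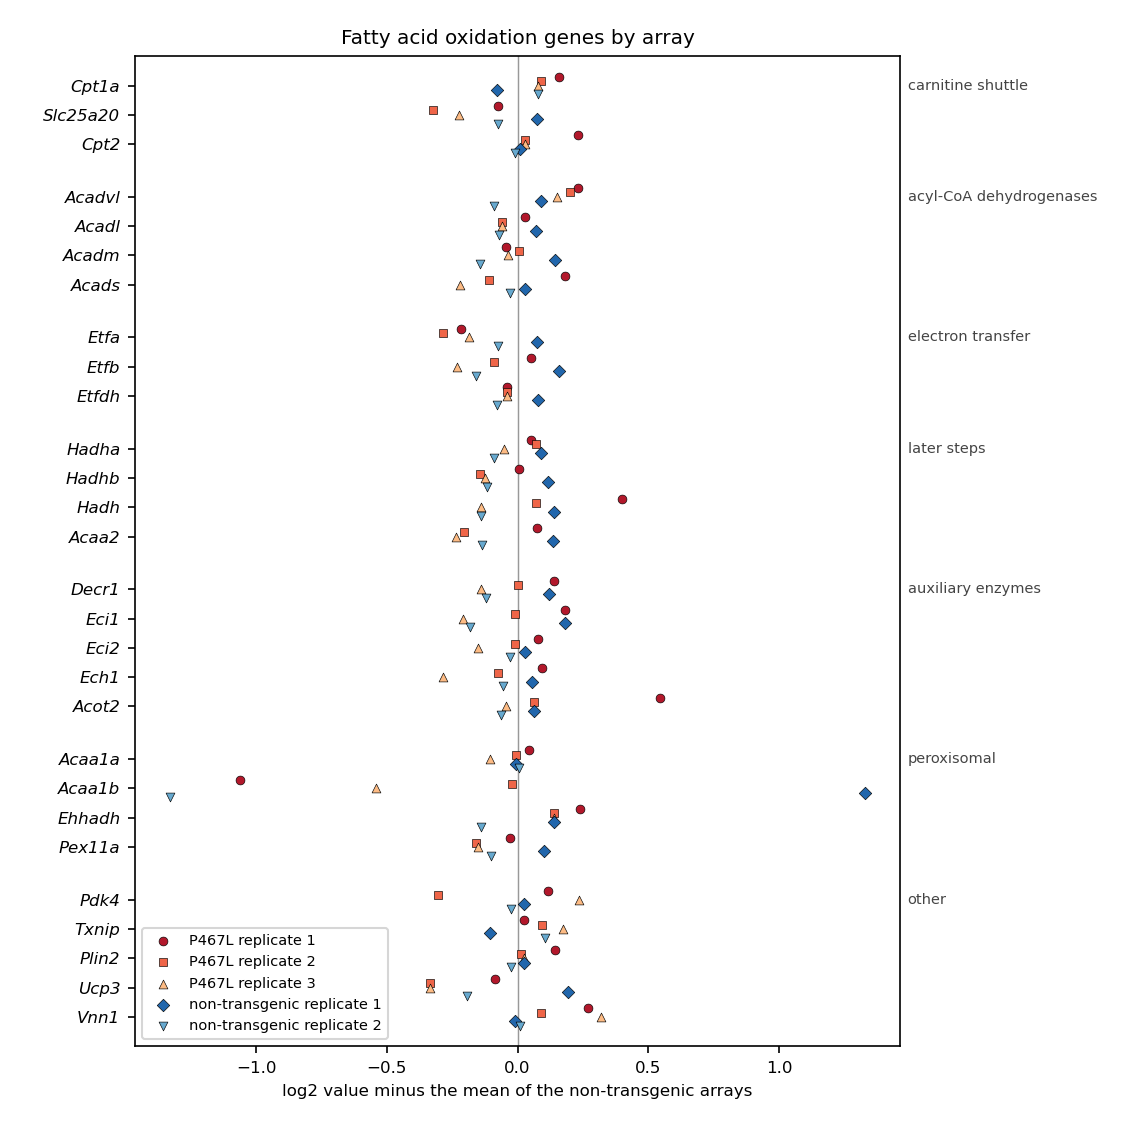
Log2 value of each of the 28 genes in each array, minus the mean of its non-transgenic arrays (horizontal axis); red and orange symbols are P467L and blue symbols non-transgenic arrays, spread slightly up and down within a gene. For most genes the colours overlap; non-transgenic replicate 1 lies right of non-transgenic replicate 2 in 24 of 28 genes, and Acaa1b spans 2.66 units.

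Several adipocyte transcripts lay well above the array medians, Adipoq and Ucp1 among them, while Lep and Ppargc1a lay below, and the lists differed between the non-transgenic arrays in the same direction. Adiponectin (Adipoq) measured 10.30, 9.54 and 9.66 in P467L, against 10.39 and 9.23 in non-transgenic aortas. Ucp1, the uncoupling protein that defines brown fat, measured 8.86, 7.82 and 8.89 in P467L, against 9.92 and 8.01 in non-transgenic aortas. Of the brown adipocyte markers 8 of 8, and of the white 6 of 6, were higher in non-transgenic replicate 1 than in replicate 2. Array medians of the brown list were -0.13, -0.37 and -0.14 in P467L, against 0.31 and -0.31 in non-transgenic aortas, and those of the white list 0.39, -0.10 and -0.14 in P467L, against 0.32 and -0.32 in non-transgenic aortas. P467L replicate 1 was the highest P467L array in 6 of 6 white markers and 4 of 8 brown markers. The part of perivascular fat in the values of the oxidation genes was not tested. This order of the non-transgenic arrays was also seen in 7 of 8 skeletal muscle, 6 of 8 smooth muscle and 5 of 8 cardiac muscle markers. It was seen in 8 of 8 kidney markers too, but that list was chosen after its values were seen. Only 3 of 8 endothelial, 3 of 8 macrophage and 0 of 8 stomach markers had it, against 43.2% of named genes. P467L replicate 1 was the highest P467L array in 7 of 8 skeletal muscle and 7 of 8 macrophage markers. The same held for 4 of 8 cardiac, 4 of 8 stomach, 3 of 8 smooth muscle, 3 of 8 endothelial and 0 of 8 kidney markers. The smooth muscle list had array medians of 0.00, 0.02 and 0.03 in P467L, against 0.01 and -0.01 in non-transgenic aortas. Single smooth muscle markers differed more, none past the adjusted threshold: Des by 0.81, Smtn by 0.16 and Myocd by -0.36, all without overlap. Of the 8 markers, 2 thus had all P467L arrays higher and 1 lower, where 16.1% and 6.55% of named genes did so.

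**Figure D4:**
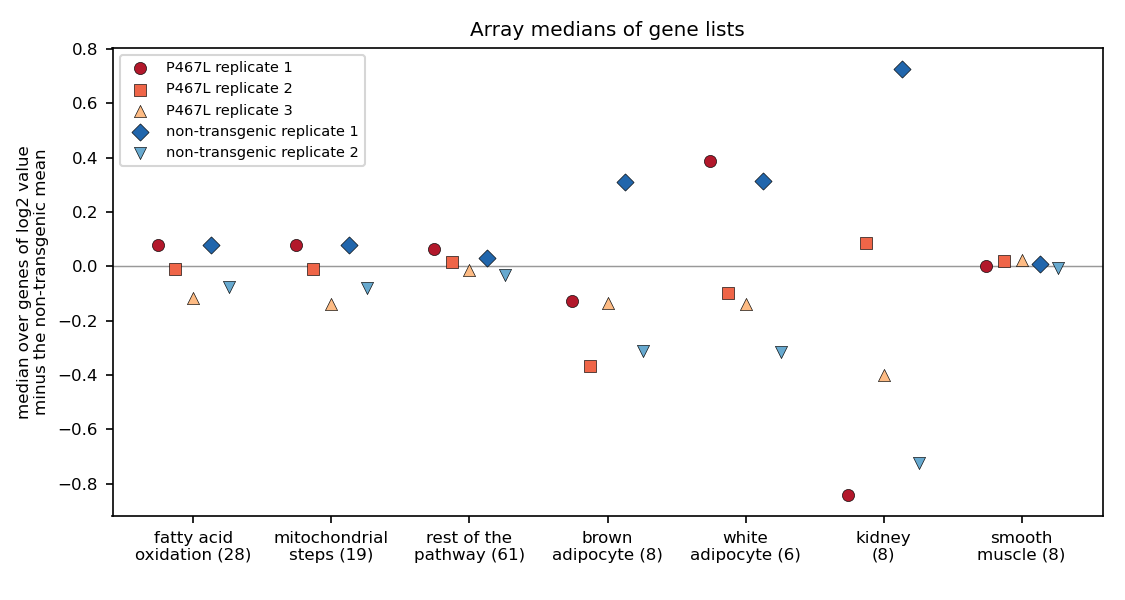
Median over the genes of each list of the log2 value minus the non-transgenic mean (vertical axis), 1 symbol per array; numbers of genes are in brackets. The fatty acid oxidation genes spread from -0.12 to 0.08. The adipocyte and kidney lists spread more widely, with non-transgenic replicate 1 above replicate 2 in each. The kidney list was chosen after its values were seen. The medians of the smooth muscle markers lie near 0.

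The rest of the pathway was read from 61 of 66 listed genes, none of which passed over all probe sets. The median difference was 0.005, with 31 higher, 27 lower and 3 at 0, and 8 of 61 had all P467L arrays above both non-transgenic arrays while 0 had them below, where 16.1% and 6.55% of named genes did so. At an unadjusted p under 0.05 there were 3 of 61, all higher, where 6.94% of named genes were higher and 2.51% lower. Both counts of higher genes lie below the share over all named genes. Acot7, a thioesterase of long chain acyl-CoA, measured 9.34, 9.11 and 9.02 in P467L, against 8.67 and 8.55 in non-transgenic aortas (difference 0.55, SE 0.11, adjusted p = 0.445). Oxct1, the enzyme with which tissues outside the liver burn ketone bodies, measured 13.22, 13.27 and 13.21 in P467L, against 13.07 and 13.01 in non-transgenic aortas (difference 0.19, SE 0.042, adjusted p = 0.452). In both the groups did not overlap. The mitochondrial acyl-CoA synthetase Acsl5 differed by 0.14, the kinase Pdk1 by 0.18 and Cpt1c, the brain carnitine palmitoyltransferase, by 0.11, again without overlap. Ephx2, the soluble epoxide hydrolase, differed by -0.39 (SE 0.20) with overlap. By class, the 17 mitochondrial enzymes had a median of 0.005 (range -0.09 to 0.15) and the 15 peroxisomal enzymes and transporters one of -0.01.

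None of the 10 receptors and coactivators that were listed passed the adjusted threshold. Ppara differed by 0.02 (SE 0.057), Ppard by 0.14 (SE 0.13) and Pparg by 0.17 (SE 0.13). Ppargc1b, the coactivator PGC-1β that drives oxidation genes together with estrogen-related receptors, measured 7.61, 7.56 and 7.63 in P467L, against 8.07 and 7.98 in non-transgenic aortas. All P467L arrays were below both non-transgenic arrays, with a mean difference of -0.43 (SE 0.048, adjusted p = 0.229); this gene was singled out after its values were seen. Its partner Esrra, the estrogen-related receptor α, differed by 0.13 in the other direction. Lpin1, a phosphatidate phosphatase and coactivator, differed by 0.19 and Rxra, a retinoid X receptor, by 0.17, both also higher in P467L. In these 3 the groups did not overlap either. Of the 10 genes, 3 thus had all P467L arrays higher and 1 lower, where 16.1% and 6.55% of named genes did so.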

How the data were processed

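Total RNA of pooled thoracic aortas was hybridised to Affymetrix mouse genome arrays. Per the submitters' processing notes, the authors ran RMA with Affymetrix Power Tools, and the deposited numbers are log2 values; no version is stated. RMA normalizes quantiles across arrays, which removes a shift shared by most transcripts, and summarises probes into probe sets. No depth applies; the number of arrays limits the precision. The values had 2 decimals, and 514 probe sets had no spread within groups.

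From these, 64 control probe sets were left out and 45037 tested with limma 3.58.1 in R 4.3.3 (lmFit, eBayes, no covariate, two-sided, Benjamini-Hochberg over all, threshold 0.05; differences are P467L minus non-transgenic). The fit had 4.23 degrees of freedom. Of the probe sets, 34945 were annotated to 1 gene, 932 to several and 9160 to none in the table used. The fit was tested on simulated data.

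The genes and lists were chosen with earlier results of these data known. All 28 measured genes are named; values of every array are given for genes with an unadjusted p under 0.05, the largest absolute difference of each role and well-known PPAR targets. Of the rest of the pathway the 6 with the smallest p are named, and Slc27a2, Eci3 and Cyp4a14 were added after their values were seen. No list was tested. Other fits used the replicate number as a block, other scalings, filters and variance models, array weights, and single arrays left out; a fit without both P467L replicate 1 and non-transgenic replicate 2 was added after the data were seen. The labels name no batch.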

Additional observations from a re-analysis of the deposited data

How the results depend on the processing

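The count of 0 called genes among the 28 held under every alternative run; the smallest adjusted p among them was 0.0506, with array weights. Over all probe sets the count of 0 became 15 with arrays centred on their medians, 2245 with array weights (a fit that gave a convergence warning), 10 with 1 probe set per gene and 17 at an adjusted p of 0.10. The replicate number pairs nothing known: same-numbered arrays deviated together with correlations of 0.11 and 0.01. Replicate 3 exists only in P467L, so the replicate block takes up that array. Its differences therefore equal those without P467L replicate 3 and are not a separate check. The replicate block gave 0 calls and a median of 0.03 over the 28 genes. That median ran from -0.09 to 0.04 without single arrays and was -0.15 without P467L replicate 1 and non-transgenic replicate 2, a fit chosen after seeing the data. Median centring raised all differences by 0.04. The filters, the variance model and the use of 1 probe set per gene do not change a gene's fitted difference, so they could not turn its direction. The direction held in all alternatives for 7 of 28 genes: Acadvl, Cpt1a, Cpt2 and Vnn1 higher, Etfa, Slc25a20 and Ucp3 lower. Ucp3 was dropped by the filter on the mean level, and its second probe set gave 0.10. Ehhadh was at 0 without P467L replicate 1 and non-transgenic replicate 2, and Decr1, at 0, had no direction. In the other 19 it turned at least once, most often (10 genes) without non-transgenic replicate 1. Reversed values were, under the replicate block, Acads 0.035, Eci1 0.085, Eci2 0.035, Ech1 0.01, Acaa1a 0.02, Pdk4 -0.095, with centring Acadl 0.01, Acadm 0.015, Eci1 0.027, Eci2 0.013, Acaa1a 0.018, with a second quantile normalization Hadha -0.005, Pdk4 -0.028, with array weights Acadm 0.0045, Pdk4 -0.30, with the mean over probe sets Acadl 0.035, Acaa1a 0.047, Pex11a 0.082, and without P467L replicate 1 and non-transgenic replicate 2 Hadha -0.08, Hadh -0.17, Acot2 -0.055, Pdk4 -0.06, Plin2 -0.005. Without single arrays the differences ranged as follows: Acaa1a -0.055 to 0.02, Acaa1b -1.87 to 0.79, Acaa2 -0.26 to 0.013, Acadl -0.10 to 0.04, Acadm -0.17 to 0.12, Acads -0.17 to 0.035, Ech1 -0.18 to 0.01, Eci1 -0.19 to 0.17, Eci2 -0.08 to 0.035, Etfb -0.25 to 0.07, Etfdh -0.12 to 0.04, Hadh -0.035 to 0.25, Hadha -0.067 to 0.11, Hadhb -0.20 to 0.027, Pdk4 -0.095 to 0.17, Txnip -0.0067 to 0.20. The cause was not tested. Signals near the array medians, as for Ucp3, limit what a difference there can show.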

Other observations

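Probe sets of 1 gene did not always give the same direction. Of the 15 genes with more than 1 single-gene probe set, 8 had differences of 1 sign in all of them, 6 had opposite signs and Decr1 had one at 0. Acaa2 and Slc25a20 were negative and Cpt1a, Vnn1 and Cpt2 positive in each of their probe sets. Pex11a ran from -0.11 to 0.28 and Acot2 from -0.16 to 0.19 between probe sets, none of which passed the test. A further 4 probe sets were annotated to several genes, at least 1 of them among the 31, and were not read. Some of these were shared by Acaa1a and Acaa1b alone.

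Cyp4a14, an omega-hydroxylase of fatty acids induced through PPARα in liver and kidney, measured 4.61 in all P467L arrays, against 5.58 and 4.44 in non-transgenic replicates 1 and 2. It was thus highest in the same array as Acaa1b and the kidney transcripts. All its values lay below the array medians, where a difference can show little, and it was singled out after its values were seen.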
